A study of Glycine max with 18 samples.

Results

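Stored transcripts lost during germination in water were examined as a group of 200 genes, out of 56044 genes measured in soybean embryonic axes. The members were chosen from the measured values. A member had a mean of at least 5 RPKM (read count scaled by transcript length and by the mapped reads of the library) in the control at 12 hours after imbibition (HAI), and each 24 HAI and 36 HAI control library lay below every 12 HAI control library. The ranges of control and paclobutrazol (PBZ) libraries overlapped at 36 HAI. These conditions held for 5956 genes, and the 200 with the largest log2 loss from 12 to 36 HAI in control were kept, with 0.1 RPKM added to each mean. The smallest losses inside the limit were 3.39 (Glyma.20G221800, mean 32.1 RPKM at 12 HAI and 2.96 RPKM at 36 HAI) and 3.38 (Glyma.08G212000, 220.3 and 21.1 RPKM) on the log2 scale. The first genes outside it had 3.36 (Glyma.14G057900, 26.5 and 2.50 RPKM) and 3.35 (Glyma.15G083200, 9.91 and 0.880 RPKM).

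A maturing seed lays down mRNAs that stay in the dry embryo. Among the best known are those for late embryogenesis abundant (LEA) proteins, hydrophilic proteins that protect dry cells, for oil body coat proteins and for small heat shock proteins. After water uptake such transcripts are degraded while genes for metabolism and growth are switched on. Gibberellin (GA) promotes germination, and PBZ blocks GA synthesis at kaurene oxidase.

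The axes came from seeds of the cultivar BRS-284 and were separated from the cotyledons after germination in plain water (control) or in 200 µM PBZ. Control and PBZ were each sampled at 12, 24 and 36 HAI, with 3 independent replicates of 3 plates with 20 seeds each, which gave 18 libraries in 6 groups. No mutant or transgene was involved. Dry axes are not analysed here, so a transcript made before drying and one made in the first 12 hours cannot be told apart, and "stored" describes the time course only. In a bulk axis sample, fewer cells of a type and less RNA per cell cannot be told apart, and an RPKM is a share of the library's mapped reads.

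Libraries differed in depth by 0.818- to 2.89-fold relative to control replicate 1 at 24 HAI, read from the steps between low RPKM values. The 43 genes that resemble organellar genes, none of them a member, took 0.331% to 0.442% of the summed RPKM in control replicates 1 and 3 at 12 HAI but 0.0843% in replicate 2. They took 0.290% in control replicate 3 at 36 HAI and 0.0209% to 0.0256% in the other 2 libraries of that group. The axis and meristem list (5 genes) summed to between 25.2 and 44.3 RPKM in the controls, with none of its genes at 0 throughout. It was matched by name and holds SCARECROW-LIKE genes beside an AINTEGUMENTA-like and a SHORT-ROOT gene, so it is not a clean marker set. Its genes took different courses in control from 12 to 36 HAI. The mean of the AINTEGUMENTA-like gene fell from 18.6 to 3.35 RPKM, and that of the SHORT-ROOT gene rose from 2.11 to 3.59 RPKM. The seed coat and endosperm list holds 3 genes described as hydrophobic seed or 2S albumin proteins. Their sum moved the other way from the members, from 53.4 to 96.8 RPKM in the 12 HAI controls to 641 to 983 RPKM at 36 HAI. With PBZ it was 21.6 to 53.8 RPKM at 12 HAI and 648 to 902 RPKM at 36 HAI. At 24 HAI the groups were separate, with 341 to 419 RPKM with PBZ and 516 to 636 RPKM in control. The part of that list in the results was not tested. No described gene matched the cotyledon reserve markers, so carry-over of cotyledon RNA was not tested.

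In control axes the members went from abundant to scarce between 12 and 36 HAI. The median member stood at 23.9, 21.7 and 24.0 RPKM in the 3 control libraries at 12 HAI, at 4.35, 2.88 and 4.23 RPKM at 24 HAI and at 1.04, 0.906 and 1.24 RPKM at 36 HAI. As the rule used these libraries, the fall is a description and has no test. The 200 genes together made up 2.60% to 2.82% of all summed RPKM at 12 HAI, 0.401% to 0.581% at 24 HAI and 0.108% to 0.150% at 36 HAI. The log2 loss ranged from 3.38 to 7.62, with a median of 4.14. Most of the loss came before 24 HAI, when the median member kept 17.8% of its 12 HAI mean, and 5.24% was left at 36 HAI. The decline went on after 24 HAI in 197 of the 200 members by their means, and for 165 every 36 HAI control lay below every 24 HAI control. The rule favoured low 36 HAI controls and the share of all genes was not counted, so these counts only describe the members.

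The members spanned a wide range of levels at 12 HAI, from 5.03 to 5988 RPKM with a median of 22.6 RPKM. The mean reached 100 RPKM or more for 23 of the 200 and was below 10 RPKM for 50. The loss was seldom complete. At 36 HAI, 86 members still had at least 1 RPKM in all 3 controls, and 6 were listed at 0 in all of them.

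**Figure D1:**
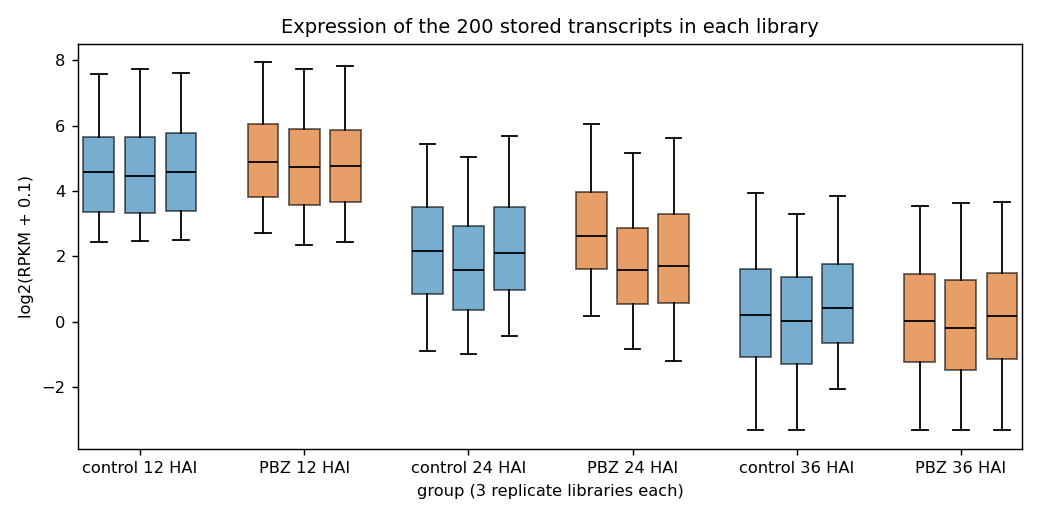
Log2(RPKM + 0.1) of the 200 members in each of the 18 libraries, with 3 libraries per group (box: quartiles, line: median, whiskers: 5th to 95th percentile). The boxes step down from 12 to 24 to 36 HAI in control (blue) and PBZ (orange), and PBZ replicate 1 at 24 HAI sits above the other 2 libraries of its group.

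The most abundant member was Glyma.17G027400, which has no description in the sources used here. It stood at 5736, 5895 and 6331 RPKM in the 12 HAI controls, which was 0.929% to 1.04% of all summed RPKM in those libraries. With PBZ at 12 HAI it stood at 9320, 6479 and 7988 RPKM, above every control. At 24 HAI it had fallen to 782, 574 and 860 RPKM in control and 1505, 626 and 632 RPKM with PBZ, where the ranges overlapped. Only 11 members carried a description, 8 of them on lists of PBZ-responsive genes that were made from these same libraries, so they do not stand for the 200. The values of 8 described members are plotted by library.

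**Figure D2:**
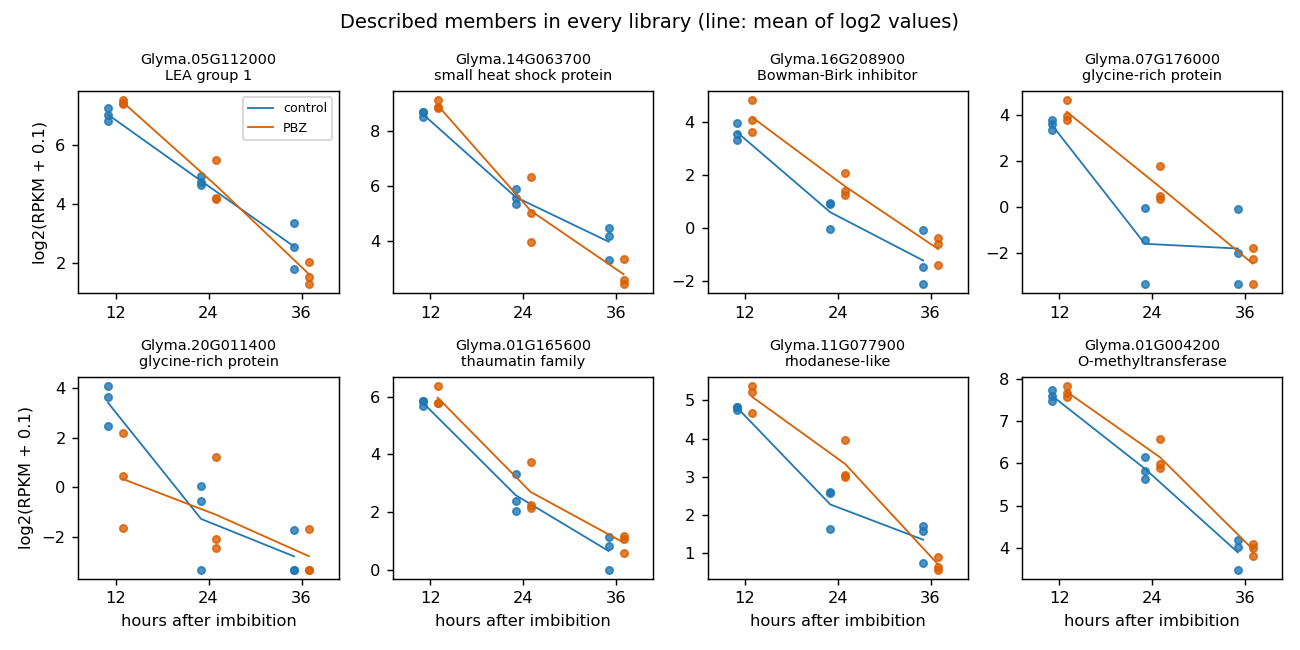
Log2(RPKM + 0.1) of 8 described members against hours after imbibition, with 1 point per library (3 per group) and a line through the mean of the log2 values. Control (blue) and PBZ (orange) points fall together in most panels, and Glyma.20G011400 starts lower with PBZ at 12 HAI.

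Small heat shock proteins hold unfolded proteins in solution until they can be refolded. The member of that family, Glyma.14G063700, had 415, 366 and 414 RPKM in control at 12 HAI, 46.9, 40.3 and 59.5 RPKM at 24 HAI and 17.8, 9.66 and 21.7 RPKM at 36 HAI. With PBZ it had 565, 471 and 459 RPKM at 12 HAI, 79.8, 32.6 and 15.4 RPKM at 24 HAI and 5.84, 5.25 and 9.96 RPKM at 36 HAI. All PBZ libraries were above all controls at 12 HAI, and the groups overlapped at both later times. From 12 to 24 HAI with PBZ it fell by 3.85 on the log2 scale (SE 0.51, limma adjusted p = 0.000848, n = 3 and 3).

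Glyma.05G112000, described as a group 1 LEA protein, was the one member of the LEA list. It had 113, 130 and 156 RPKM in control at 12 HAI and 186, 175 and 169 RPKM with PBZ, again without overlap. At 24 HAI it had 24.9, 27.2 and 31.2 RPKM in control and 45.1, 18.7 and 18.2 RPKM with PBZ, and at 36 HAI 3.38, 10.1 and 5.76 against 2.36, 4.06 and 2.80 RPKM. The PBZ libraries straddled the controls at 24 HAI, with replicate 1 above and the other 2 below. With PBZ it fell from 12 to 24 HAI by 2.82 on the log2 scale (SE 0.33, limma adjusted p = 0.000496).

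Bowman-Birk inhibitors block trypsin-like and chymotrypsin-like proteases and are abundant in legume seeds. Glyma.16G208900 of this family had 15.5, 9.88 and 11.5 RPKM in control at 12 HAI and 1.76, 0.861 and 1.82 RPKM at 24 HAI. With PBZ it had 28.3, 12.3 and 16.7 RPKM and then 4.13, 2.27 and 2.50 RPKM, so that every PBZ library lay above every control at 24 HAI. That difference did not pass the limits (log2 change 0.97, SE 0.34, limma adjusted p = 0.134), while the fall from 12 to 24 HAI with PBZ did (-2.61, SE 0.33, limma adjusted p = 0.000726).

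Glycine-rich proteins are a mixed family with members in cell walls and among RNA-binding proteins. Glyma.07G176000 had 12.0, 9.90 and 13.4 RPKM in control at 12 HAI and 0, 0.882 and 0.277 RPKM at 24 HAI, against 24.6, 15.3 and 13.7 and then 3.32, 1.19 and 1.30 RPKM with PBZ. It was above control in every PBZ library at both times, but at 24 HAI not past the limits (log2 change 2.46, SE 0.84, limma adjusted p = 0.128). The neighbouring genes Glyma.20G011300 and Glyma.20G011400 showed the other order at 12 HAI. Glyma.20G011400 had 5.45, 16.96 and 12.4 RPKM in control and 4.46, 0.221 and 1.26 RPKM with PBZ, and Glyma.20G011300 had 2.82, 10.03 and 7.32 against 1.91, 0.259 and 0.210 RPKM. Both were thus lower in every PBZ library than in every control at 12 HAI. Where 2 copies are near-identical, only reads that tell them apart were counted, so their separate levels are uncertain.

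The other described members belong to defence, RNA modification and metabolism. Glyma.01G165600, a thaumatin family protein of the kind induced by pathogens, had 57.4, 58.3 and 51.4 RPKM in control at 12 HAI and 83.3, 54.4 and 54.5 RPKM with PBZ. It fell with PBZ by 3.27 on the log2 scale (SE 0.42, limma adjusted p = 0.000714) to 13.2, 4.28 and 4.60 RPKM at 24 HAI, where control had 9.81, 5.19 and 4.05 RPKM. Glyma.01G139900 is described as a mitochondrial tRNA threonylcarbamoyltransferase, an enzyme that modifies tRNA, and fell with PBZ by 2.35 (SE 0.29, limma adjusted p = 0.000627).

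Falls were smaller for 3 metabolic genes, and each still passed both limits. Glyma.11G077900, of the rhodanese family of sulfur transfer proteins, fell with PBZ by 1.76 on the log2 scale (SE 0.29, limma adjusted p = 0.00205). Glyma.01G004200, an O-methyltransferase that would use S-adenosylmethionine, fell by 1.54 (SE 0.20, limma adjusted p = 0.000696). Glyma.07G220400, a cytochrome P450 monooxygenase, fell by 1.25 (SE 0.30, limma adjusted p = 0.0103).

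Whether the same transcripts also fell in axes without normal GA synthesis was tested on the 6 PBZ libraries at 12 and 24 HAI, none of which entered the member rule. Log2(RPKM + 0.1) was compared with limma, and a gene was called at a Benjamini-Hochberg adjusted p of at most 0.05 over all genes tested and a change of at least 1 on that scale, which understates the change of low genes. Testing was limited to genes whose mean reached 1 RPKM in either group. Of the 200 members, 191 were called lower at 24 HAI, 0 higher, 8 were tested and not called, and 1 was not tested. Among all 31495 genes tested, 9.51% were called lower and 17.1% higher. At an unadjusted p of at most 0.05 the members gave 193 lower and 0 higher, or 97.0% of those tested. Of all genes tested, 60.4% reached that p in either direction. With members chosen without control replicate 2 at 12 HAI and control replicate 3 at 36 HAI, 147 of 199 tested were called lower.

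The median log2 change of the members tested was -2.74, with a range of -6.06 to 1.51 and a median SE of 0.31, against a median of 0.07 over all genes tested. Of these members, 22 passed the minimum only through their 12 HAI level. The other 177 had at least 1 RPKM at both times, and 171 of them were called lower, with a median of -2.61, where 8.40% of all genes at the minimum in both groups were called lower. Of the 5756 tested genes that met the rule but ranked lower, 1391 (24.2%) were called lower, with a median of -0.64. Every 24 HAI PBZ library lay below every 12 HAI PBZ library for 193 of the 200 members, against 28.6% of all genes tested, and above for 0, against 35.7%.

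**Figure D3:**
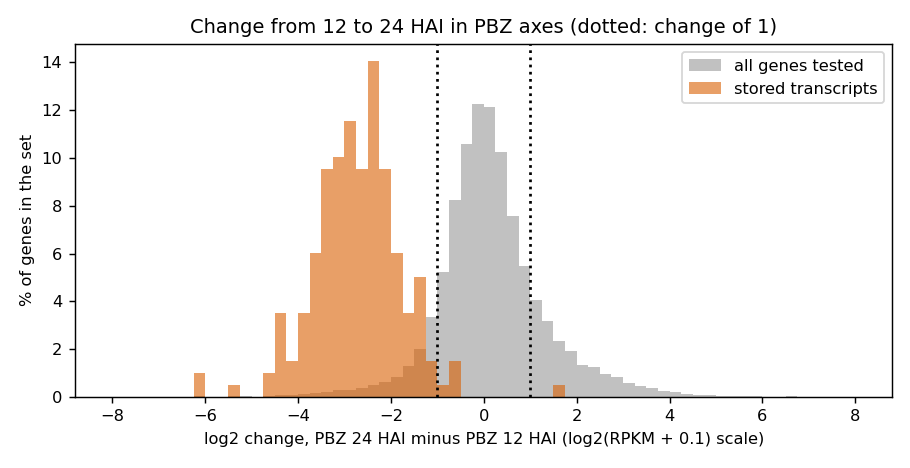
Percent of genes in each set (y axis) against the log2 change from 12 to 24 HAI with PBZ (x axis, log2(RPKM + 0.1) scale), for the members tested (orange, 199 genes) and all 31495 genes tested (grey). The members centre on -2.74 and all genes on 0.07, and dotted lines mark a change of 1.

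The 8 members tested and not called were mostly scarce or uneven between replicates. Glyma.19G066000 was the one member with a rise in the fitted value (log2 change 1.51, SE 1.20, limma adjusted p = 0.317), with 0, 2.97 and 2.55 RPKM at 12 HAI and 2.96, 1.86 and 3.03 RPKM at 24 HAI with PBZ. Its direction rests on PBZ replicate 1 at 12 HAI, and without that library the change was -0.10. Glyma.05G039600 (0, 5.55 and 12.7 RPKM, then 0, 2.34 and 0 RPKM), Glyma.12G122200 and Glyma.20G011400 also spread widely at 12 HAI.

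Slower loss was measured more tightly in 2 of these 8 genes. Glyma.18G194300 had 28.7, 42.3 and 29.5 RPKM at 12 HAI with PBZ and 23.8, 16 and 20.4 RPKM at 24 HAI, a log2 change of -0.73 (SE 0.20, limma adjusted p = 0.0176) that missed the limit of 1. It kept the highest share of any member in control, 52.1% of its 12 HAI mean at 24 HAI, and 60.0% with PBZ. Glyma.02G288700 had 5.09, 5.24 and 5.41 RPKM and then 3.74, 2.92 and 2.20 RPKM (-0.84, SE 0.20, limma adjusted p = 0.0101). Both were low by 36 HAI, at 6.31% and 8.67% of their 12 HAI means with PBZ. The last 2 of the 8, Glyma.07G212100 and Glyma.12G085300, had log2 changes of -0.72 (limma adjusted p = 0.296) and -0.63 (limma adjusted p = 0.316).

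The loss continued in PBZ axes from 24 to 36 HAI. By the same test 158 members were called lower at 36 HAI, 0 higher, 20 were tested and not called and 22 were not tested, while 4.46% of the 33020 genes tested were called lower and 14.1% higher. At an unadjusted p of at most 0.05, 165 were lower and 0 higher, or 92.7% of those tested, against 59.6% of all genes tested in either direction. The 36 HAI PBZ libraries entered the rule, as they had to overlap 36 HAI controls that were chosen to be low. Low levels with PBZ at 36 HAI were thus favoured by the rule. The counts describe the members and are not independent evidence of a continuing loss. Of the members tested, 83 passed the minimum through their 24 HAI level only. Of the 95 at the minimum at both times 83 were called lower, with a median log2 change of -1.94. Among all genes at the minimum in both groups, 3.55% were called lower. Over all members tested the median was -2.14. Without PBZ replicate 1 at 24 HAI, the library with the highest members, 127 were called lower. Every 36 HAI library lay below every 24 HAI library for 175 of the 200 members, against 31.4% of all genes tested, and above for 0, against 32.9%.

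At 12 HAI the members were on the whole higher with PBZ than in control. The median member stood at 29.4, 26.4 and 26.9 RPKM in the 3 PBZ libraries, above all 3 controls, and the 200 genes made up 3.16% to 3.51% of summed RPKM. The PBZ mean was higher for 179 members and lower for 21, and it was higher for 49.0% of the 29297 genes tested. The median ratio was 1.17 over the members and 0.997 over all genes tested. Every PBZ library was above every control for 50 members (25%), where 3.82% of all genes did so, and below for 3 (1.5%), where 6.74% did. As the 12 HAI controls entered the rule, and members are genes with high values there, these figures are a description with no test. With median-ratio scaling the counts were 52 and 3 and the median ratio 1.19. Of all genes tested, 5.36% were then above, and their median ratio was 1.01. With 2 libraries in a group separate ranges are easier to reach for any gene. Leaving out 1 library gave 59 to 92 members above and 3 to 8 below, with 92 and 4 without PBZ replicate 2. The median ratio was then 1.13 to 1.19. The share of all genes with 1 library left out was not counted.

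Single members differed more at this time. Glyma.06G276500 had 224, 135 and 192 RPKM in control and 630, 225 and 514 RPKM with PBZ, so that the lowest PBZ library was close to the highest control. Glyma.05G186800 had 27.3, 34.1 and 47.3 RPKM in control and 108, 47.4 and 56.0 RPKM with PBZ, where the groups were also parted by a small gap. Glyma.08G302100 had the highest ratio of means, 4.66, but its controls ranged from 2.05 to 35.3 RPKM. The 50 members include the small heat shock protein and the LEA gene described above.

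**Figure D4:**
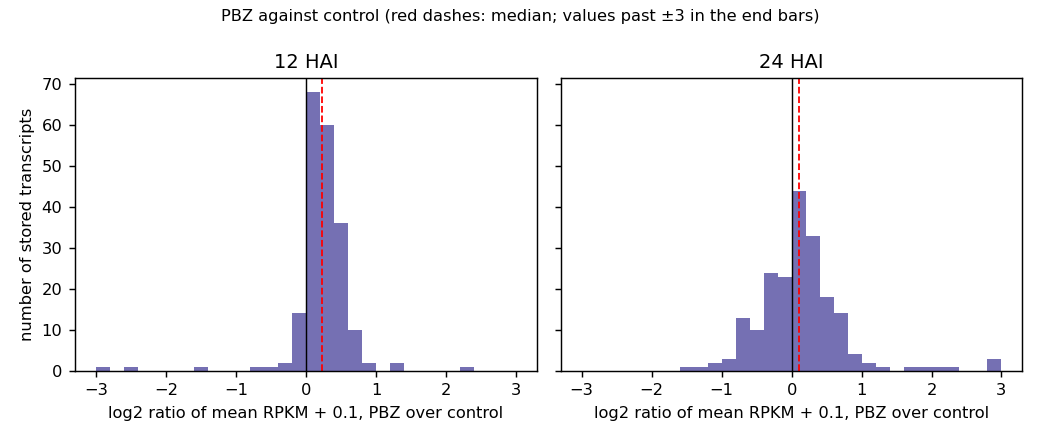
Number of members (y axis) by log2 ratio of PBZ to control mean RPKM + 0.1 (x axis) at 12 and 24 HAI, with the 3 replicates of a group averaged and a red dashed line at the median. At 12 HAI 179 of the 200 members (89.5%) have a higher PBZ mean, against 49.0% of all genes tested. At 24 HAI 123 members (61.5%) do, against 38.6%.

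At 24 HAI no member was called different between PBZ and control. Of the 200 members 184 were tested, with 0 called higher and 0 lower, where 0.716% of the 31148 genes tested were called higher and 0.202% lower. At an unadjusted p of at most 0.05, 14 members were higher and 2 lower, or 8.70% of those tested, against 26.5% of all genes tested. The median log2 change was 0.06 over the members, with a range of -1.37 to 4.59 and a median SE of 0.38, against -0.07 over all genes tested. A change below the limits is not shown to be absent by this test. Where so few of all genes were called, counts of 0 do not set the members apart. The rule read the 24 HAI controls, and when members were chosen without that condition 196 of the 200 were the same genes. Its overlap condition at 36 HAI also left out genes whose PBZ and control ranges were separate at that time. The comparison at 24 HAI is therefore not independent of the choice of members. The count depends on the control libraries behind the rule. With members chosen without control replicate 2 at 12 HAI and control replicate 3 at 36 HAI, whose organellar-like share stands apart, 140 of the 200 members were the same genes and none of these was called, while 40 of the 60 new genes were called higher with PBZ, 14 of them organellar-like.

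Few members had separate ranges at this time. Every PBZ library was above every control for 11 members (5.5%), where 11.4% of all genes did so, and below for 2 (1%), where 22.8% did. The sign of the median rested on single libraries. The median was -0.24 without PBZ replicate 1 and -0.10 without control replicate 2, and 0.11 to 0.24 when one of the other 4 libraries was left out. PBZ replicate 1 was the highest of its group for 185 of the 200 members, and its median member stood at 6.07 RPKM, against 2.90 and 3.16 RPKM in the other 2 libraries. The organellar-like genes took 0.241% to 0.423% of summed RPKM in the PBZ libraries and 0.0252% to 0.0357% in the controls at this time, and with these genes left out and RPKM rescaled 0 members were called in either direction and the median log2 change of the members stayed at 0.06.

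The smallest adjusted p among members at 24 HAI belonged to Glyma.05G186800, with 8.60, 3.43 and 4.99 RPKM in control and 12.0, 15.0 and 16.2 RPKM with PBZ. The PBZ libraries were all higher, and the difference narrowly missed the limit (log2 change 1.42, SE 0.31, limma adjusted p = 0.0575). Glyma.06G276500 came next among the named members, with 34.6, 32.6 and 30.7 RPKM in control and 91.3, 49.6 and 54.4 RPKM with PBZ (0.94, SE 0.22, limma adjusted p = 0.0613). Glyma.11G077900, the rhodanese family gene, had 6.01, 3.01 and 5.89 against 15.5, 7.85 and 8.22 RPKM (1.06, SE 0.35, limma adjusted p = 0.117). All 3 genes had every PBZ library above every control, and none was called in this fit. Glyma.05G186800 was called with a filter at 5 RPKM (limma adjusted p = 0.0440) and without control replicate 1 (limma adjusted p = 0.0314). The largest rise, in Glyma.17G039400 (log2 change 4.59), was not called in this fit. It was called with a pseudocount of 1 (log2 change 2.38, limma adjusted p = 0.0327) and without control replicate 3 (log2 change 5.95, limma adjusted p = 0.00440). Without PBZ replicate 1, Glyma.08G302100 was called higher (limma adjusted p = 0.0375) and Glyma.12G225900 lower (limma adjusted p = 0.0433).

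The share of the 12 HAI level that was left at 24 HAI was alike in its centre, with a median of 17.8% (range 0 to 52.1%) in control and 15.7% (range 0 to 142%) with PBZ. A member that kept more in control tended to keep more with PBZ, with Spearman's rho of 0.63 across the 200 genes, which share the same libraries and are not independent. More than 50% of the 12 HAI mean was left for 1 member in control and for 6 with PBZ. At the other end, less than 10% was left for 18 members in control and for 45 with PBZ. At 36 HAI 3.36% was left with PBZ for the median member, and 195 members were below 10%.

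**Figure D5:**
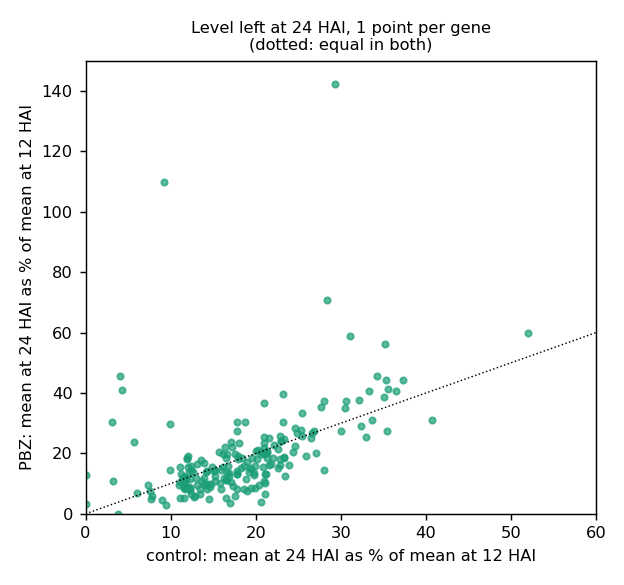
Mean at 24 HAI as a percent of the mean at 12 HAI with PBZ (y axis) against the same percent in control (x axis), 1 point per member and a dotted line at equality. The points scatter around the line (rho 0.63), and the 6 members that kept more than 50% with PBZ lie above it.

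At 36 HAI the rule itself fixed that no member had separate ranges, so the 0 members with every PBZ library above (11% of all 32752 genes tested) or below control (4.77%) carry no information. The PBZ mean was lower for 137 members and higher for 61. The share of all genes was not counted here, so these counts only describe the members. The overlap condition shaped which genes are members. Without it 280 genes had a loss at least as large, and of the 80 left out 76 had every PBZ library below every control at 36 HAI and 4 had every PBZ library above.

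Among the described LEA, oil body and heat shock genes with a loss as large as the members', most were left out. Of 16 described genes on the LEA and seed maturation list, 12 met the time conditions with a loss as large as the members', and 11 of these had every PBZ library below every control at 36 HAI, which left 1 member. All 3 described genes of oil bodies and 7 of the 8 heat shock genes with such a loss were left out in the same way. Of the 1731 described genes 1117 lie on chromosome 1, from a table held here only in part, and 606 of the other 614 are on lists of PBZ-responsive genes that were made from these same libraries. Such genes make up 14 of the 16 on the LEA list, all 3 of the oil bodies and 21 of the 41 heat shock genes. They were listed for a PBZ difference, and the overlap condition removes genes with separate ranges at 36 HAI. These shares are therefore not independent evidence of a direction or of being left out. Only 11 members have a description, and whether the others belong to these families was not tested.

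From 12 to 24 HAI with PBZ, 13 of the 15 tested genes of the LEA list were called lower and 1 higher, with a median log2 change of -4.12, while 12.0% of the 1459 described genes tested were lower and their median was 0.19. All 3 oil body genes were called lower (median -3.76), and of 41 tested heat shock and chaperone genes 20 were lower and 1 higher (median -0.85). Matching by name drew other families into these lists. The heat shock list includes a BRICK1 gene and protein kinases, and the LEA list gene called higher is described as NDR1/HIN1-like. Among the LEA genes that are not members, the most abundant was the EM-like gene Glyma.03G056000, chosen after its values were seen. Its mean was 1293 ± 136 RPKM in control and 2000 ± 159 RPKM with PBZ at 12 HAI, and 32.5 ± 9.63 and 12.2 ± 2.38 RPKM at 36 HAI (SD, n = 3).

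The remaining lists also hold mixed families, and several were near the shares of all described genes tested, of which 12.0% were lower and 24.6% higher. Of 18 genes on the storage protein list 17 matched through the name of the family of lipid transfer proteins and 2S albumins and 1 was a cupin, so the list does not stand for seed storage proteins (5 of 15 tested lower, 9 higher). The protease inhibitor and lectin list held 4 protease inhibitors among its 16 genes, beside receptor kinases, kinesins and lipid transfer proteins (1 of 13 tested lower, 5 higher). Of 13 tested genes of the abscisic acid response 1 was lower and 5 were higher, of 24 antioxidant and metal-binding genes 2 were lower and 8 higher, and of 38 ubiquitin ligase and proteasome genes 6 were lower and 2 higher. Fewer than 10 genes were tested on each other list. Called lower were 1 of 3 aquaporins (1 higher) and 1 of 4 on the axis and meristem list. None were lower on the lists of lipoxygenases and desaturases (3 of 5 higher), histones and cell cycle (2 of 7 higher) and wall expansion (3 of 3 higher). The same held for seed coat and endosperm (3 of 3 higher) and raffinose and inositol (1 of 1 higher). It also held for seed transcription regulators (0 of 2 higher) and fatty acid breakdown (0 of 1 higher).

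By their identifiers the members lay on all 20 chromosomes, with 3 on unplaced scaffolds. Chromosome 5 held 17 members (8.5%, against 4.44% of all genes in the table) and chromosome 17 held 16 (8%, against 4.69%). Only 3 pairs of members were next to each other in the table, the glycine-rich protein genes on chromosome 20 among them.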

How the data were processed

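The authors removed rRNA reads, used novoalign 3.06.05 to align single-end reads to genome build Wm82.a2.v1, kept uniquely mapped reads and deposited RPKM values from cufflinks 2.1.1 with bias correction. Cufflinks was run with a stranded library setting, while the kit named does not mark strand. Any effect of this on the RPKM values was not tested, and overlapping and antisense genes may share reads. Columns were matched to samples by name, and 0 were left unmapped. Counts were not used here, so no counting interval is given.

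Log2(RPKM + 0.1) was compared between groups of 3 with limma 3.58.1 (R 4.3.3, empirical Bayes with trend), Benjamini-Hochberg over all genes tested, a minimum of 1 RPKM for the higher group mean, and limits of 0.05 (adjusted p) and 1 (log2 change). The fit was tested on simulated data with independent noise and with changes in genes above the lowest levels. That setting does not cover shifts shared by many genes of a library or levels near 0. Other steps used Python 3.11.15.

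Members, lists and tests were chosen with earlier results of these data known. Named genes are the 12 most abundant members and the 12 with the largest loss, the slowest 5, those at the rank limit, the 5 highest and 5 lowest PBZ to control ratios at 12 HAI, and members of gene lists, from which the text gives those that carry a comparison, besides all described members. Described members outside this rule and Glyma.12G225900 were added after their values were seen. Alternatives were other pseudocounts, filters, scalings, fits and member rules, and each replicate left out. Descriptions come from tables of the study (1731 genes, 11 of them members), because the reference gene table (Glycine_max_v4.0) matched 0 identifiers. The lists were therefore matched to these descriptions, and no gene matched the cytosolic ribosome list. Sequences were not used here.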

Additional observations from a re-analysis of the deposited data

Results flagged for a closer look

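Glyma.12G225900, which has no description in the sources used here, moved in opposite directions with PBZ at 12 and 24 HAI. It had 14.4, 16.9 and 15.3 RPKM in control and 29.3, 20.6 and 20.6 RPKM with PBZ at 12 HAI, with every PBZ library above every control. At 24 HAI it had 3.23, 2.84 and 2.80 RPKM in control and 2.79, 1.07 and 1.37 RPKM with PBZ, with every PBZ library below. That separation was slight, as PBZ replicate 1 (2.79 RPKM) was almost level with the lowest control (2.80 RPKM). The gene was picked from the 200 members after its values were seen. The log2 ratio of PBZ to control at 24 HAI minus that at 12 HAI was -1.32, and this difference was not tested.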

How the results depend on the processing

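Directions and calls of the time course with PBZ held under most alternatives. The count of members lower at 24 than at 12 HAI with PBZ (191) ranged from 186 to 192 with 1 library left out, was 147 with members chosen without control replicate 2 at 12 HAI and control replicate 3 at 36 HAI, and was 95 of 99 tested with 100 members. The count lower at 36 than at 24 HAI with PBZ (158) was 127 to 158 with 1 library left out, 81 of 87 tested with a filter at 5 RPKM and 82 of 87 with 100 members, the latter 2 because fewer members were tested. For PBZ against control at 24 HAI, 0 members were higher in the reported fit, 1 with a pseudocount of 1, 1 with the filter at 5 RPKM, 1 with members ranked with a pseudocount of 1, 40 with members chosen without the 2 control libraries (an alternative chosen after seeing the data), and 0 to 1 with 1 library left out. The count lower was 0 to 1 with 1 library left out. The cause of these moves was otherwise not tested. The change of Glyma.19G066000 (1.51) ranged from -0.10, without PBZ replicate 1 at 12 HAI, to 2.37 with 1 library left out. Over the named genes, 588 of the alternative values kept their call, 6 gained it, 8 lost it (6 of these were Glyma.09G218900) and 1 changed direction. With the pseudocount of 1 in the ranking 159 of the 200 members were the same genes, and with median-ratio scaling 192.

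Same-numbered replicates of the groups compared had correlations of deviations from -0.05 to 0.17 (12 and 24 HAI with PBZ), 0.06 to 0.23 (PBZ and control at 24 HAI) and -0.01 to 0.02 (24 and 36 HAI with PBZ), and only between PBZ and control at 24 HAI did each of the 3 samples match best with its own number. The numbers were not taken to pair the samples. With a replicate block the counts were 192 lower from 12 to 24 HAI, 159 lower from 24 to 36 HAI and, at 24 HAI, 2 higher (Glyma.11G077900, limma adjusted p = 0.0455, and Glyma.17G039400, limma adjusted p = 0.0411) and 0 lower with PBZ. Spread between 3 libraries limits each value, and a level near 0 RPKM in so small a group has little precision.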
